A study of Bos taurus with 12 samples.

Results

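Immediate early transcription factors were followed in the biceps brachii muscle of bulls through 10 genes: FOS, FOSB, JUN, JUNB, EGR1, EGR2, EGR3, IER2, ATF3 and BTG2. Every non-control probe was taken whose gene name, gene number, accession or description on the array leads to 1 of these symbols. This gave 10 of the 21475 probes and 9 of the 10 genes. FOSB was read by 2 probes, each other gene by 1, and EGR3 by none. EGR2 and the FOSB probe used in the fit were matched only through their description. All 10 probes were well above background on all 12 arrays, so all 9 genes were among the 13679 genes tested. Since muscle was lysed whole, a lower level from fewer cells of a type and one from less RNA per cell cannot be told apart.

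Immediate early genes are switched on within minutes of a stimulus, without new protein synthesis, and their mRNAs are short-lived. FOS and JUN family proteins pair into the AP-1 transcription factor, EGR proteins bind GC-rich promoter sites through zinc fingers, ATF3 is a stress-induced relative of CREB, and BTG2 is an anti-proliferative partner of the CCR4-NOT deadenylase. In skeletal muscle these genes are known to respond to contraction, stretch and injury. The glucocorticoid receptor is known to interfere with AP-1, and beta-adrenergic signalling through cAMP and CREB is known to raise FOS.

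Total RNA from 12 male animals aged 18 to 20 months was labelled with Cy3 and hybridised to 1-colour Agilent arrays, with 1 animal per array and 4 per group. The control group was untreated. The dexamethasone group was fed this synthetic glucocorticoid for 42 days, each animal receiving 0.75 mg. In the combination group the drug was fed for 21 days at 0.66 mg per animal. That group also received clenbuterol, a beta2-adrenergic agonist, for 28 days, with 2 mg in the first week, 4 mg in the second and 6 mg in the remaining weeks. The arrays cover 12 of the 24 animals in the study, picked for their RNA quality. Muscle was taken after slaughter, and the sources used here do not give the time between last dose, slaughter and sampling.

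Levels are log2 signals relative to the 75th percentile of the same array, so that 0 is the brightness of that percentile. They compare animals within a gene, not genes with each other. Between 53.2% and 68.7% of spots on an array were well above background. The skeletal muscle fibre markers were present as labelled: 16 of 18 were in the fit and 15 were well above background on all 12 arrays, ACTA1, CKM, TTN and MYH7 included. The arrays were scanned on 4 days. Control animal 4, dexamethasone animals 1 to 3 and combination animals 1 to 3 were scanned on day 2, controls 1 to 3 on day 1, dexamethasone animal 4 on day 3 and combination animal 4 on day 4. Slide 1 held controls 1 to 3, slide 2 control animal 4 and dexamethasone animals 1 to 3, and slide 3 combination animals 1 to 3. Slide 4 held dexamethasone animal 4 and slide 5 combination animal 4. Among these 12 arrays the combination shared no slide with another group, so slide and treatment cannot be told apart there. Negative-control spots read 9.01 to 15.8 on day 2 and 3.55 to 5.19 on the other days. The share of spots well above background was 53.2% to 65.0% on day 2 and 66.4% to 68.7% on the other days. Day 2 held most treated animals but 1 control, so scan day and treatment cannot be fully told apart.

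FOS, the founding AP-1 partner of JUN, varied more between animals than 98.8% of all genes. Its levels were 2.75, 1.43, 2.28 and 3.42 in controls 1 to 4, and 2.47, 3.48, 3.43 and 4.01 after dexamethasone. In the combination group they were 0.49, 2.24, 5.13 and 3.81, so this group held both the lowest and the highest animal of all 12. Combination animals 1 and 3 lay 24.9-fold apart, while repeat spots of the FOS probe on 1 array had an SD of 0.072 on the log2 scale. The SD between animals within groups was 1.31, or 18.1 times that of repeat spots. Each animal was 1 array, so for every gene this SD also holds labelling, hybridisation and scanning. Repeat spots on 1 array do not measure these steps, and they cannot be told apart from the animal.

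FOSB, a second FOS family member, had levels of 2.11, 3.06, 2.72 and 4.30 in controls, 3.33, 3.55, 4.64 and 3.85 after dexamethasone and 2.37, 2.16, 4.12 and 4.21 in the combination group. The combination group split into 2 low and 2 high animals, and all 3 groups overlapped. The second FOSB probe ran from -0.83 to 0.53 over the 12 animals and had an SD within groups of 0.42, against 0.89 for the first. The 2 probes rose and fell together between animals within groups (r = 0.64, permutation p = 0.0243; rho = 0.685, permutation p = 0.0145; n = 12), and r was 0.566 without the 2 animals farthest from the median.

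JUN, the classical partner of FOS in AP-1, was steadier. Its levels were 2.68, 2.84, 2.97 and 4.29 in controls, 3.03, 3.09, 3.48 and 4.32 after dexamethasone and 2.81, 3.37, 3.76 and 3.31 in the combination group. Control animal 4 and dexamethasone animal 4 stood above the other 10 animals. The SD within groups was 0.59, at the 83.1th percentile of all genes.

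JUNB, a JUN family member that can dampen JUN activity, showed another order of animals. Its levels were 0.70, 1.41, 0.10 and 0.01 in controls, 1.68, 1.64, 2.10 and 1.59 after dexamethasone and 0.31, 1.34, 2.76 and 0.93 in the combination group. Control animal 4, high for JUN, was the lowest of all 12 for JUNB. All 4 dexamethasone animals lay above all 4 controls and within a 1.43-fold range, while the combination animals spanned 5.47-fold.

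EGR1, a zinc finger factor of the serum and growth factor response, had levels of 0.48, 0.57, -0.52 and 0.89 in controls, 0.67, 0.53, 1.81 and 1.04 after dexamethasone and -0.64, -0.55, 2.61 and 1.70 in the combination group. As for FOS and FOSB, combination animals 1 and 2 were low and animals 3 and 4 high, a 9.53-fold range. EGR2, its paralogue, best known for its role in myelinating Schwann cells, ran from -2.48 to -1.38 over all 12 animals, and its 4 combination animals lay between -1.85 and -1.76. The SDs within groups were 1.06 for EGR1 and 0.31 for EGR2, at the 97.4th and 40.4th percentiles.

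IER2, a nuclear regulator induced with the FOS and JUN genes, had levels of 0.75, 0.90, 0.50 and 0.97 in controls, 1.04, 1.004, 1.39 and 1.27 after dexamethasone and 1.51, 0.96, 1.90 and 0.88 in the combination group. Each dexamethasone animal lay above each control, although the lowest of the former was at 1.004 and the highest of the latter at 0.967. Its SD within groups was 0.32, at the 44.4th percentile.

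ATF3 levels were 3.59, 3.21, 4.04 and 6.50 in controls, 4.04, 4.66, 5.49 and 6.48 after dexamethasone and 3.14, 5.37, 4.20 and 5.92 in the combination group. BTG2 levels were 0.55, -0.02, 0.20 and 3.44 in controls, 1.14, 1.04, 2.62 and 3.55 after dexamethasone and 0.10, 1.08, 1.75 and 0.73 in the combination group. Control animal 4 and dexamethasone animal 4 were again the highest pair for both genes. The untreated group alone spanned 9.76-fold for ATF3 and 10.99-fold for BTG2, in each case through control animal 4. The SDs within groups were 1.27 and 1.23, at the 98.7th and 98.5th percentiles.

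**Figure D1:**
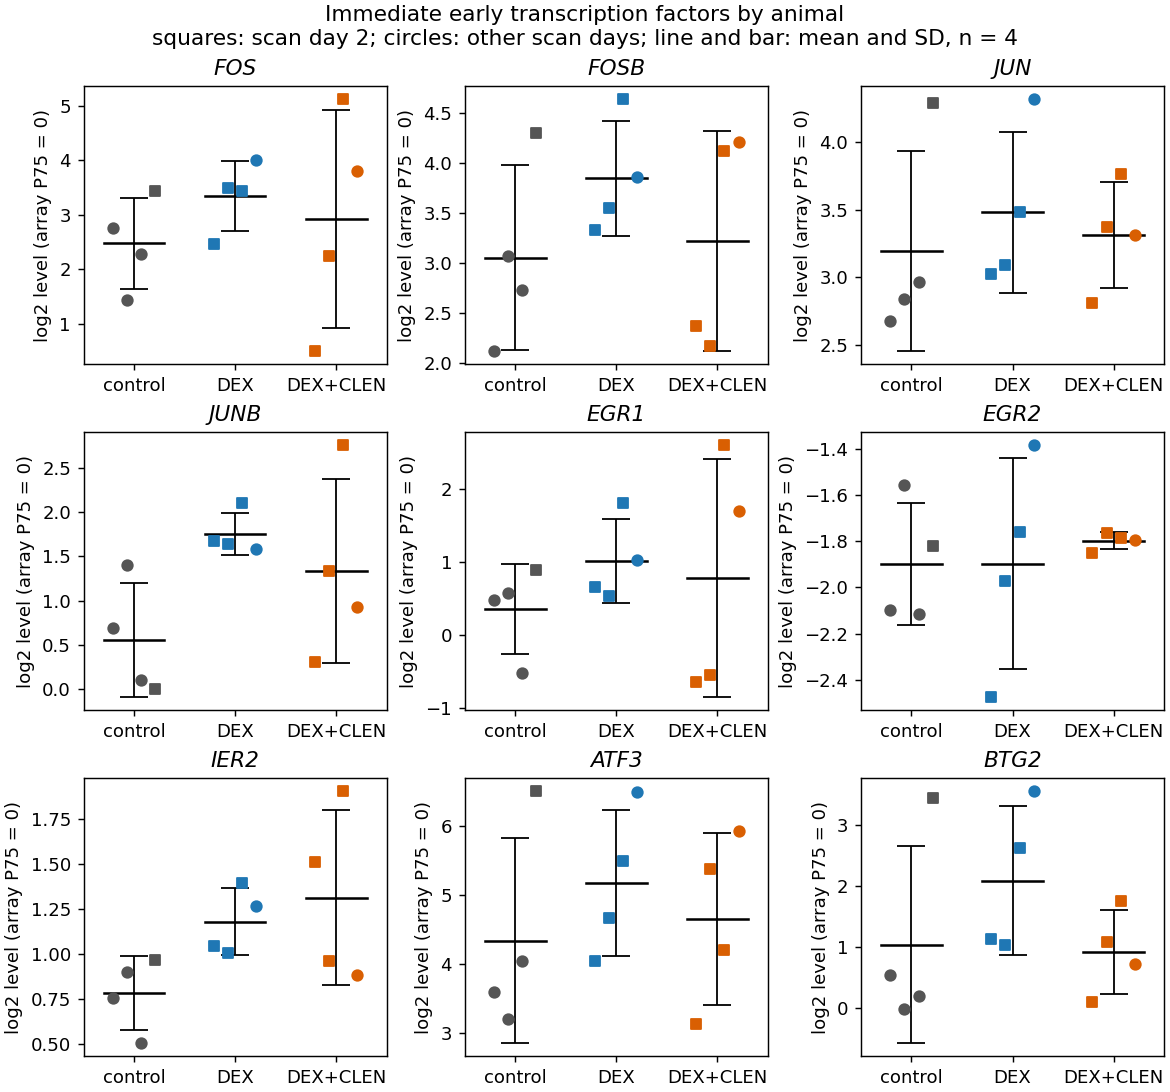
Level of each of the 9 genes in each animal, by group (x axis) on the log2 scale relative to the array's 75th percentile (y axis, a separate scale per gene). Squares were scanned on day 2 and circles on other days, and the line and bar give the mean and SD of 4 animals. JUNB and IER2 are the genes whose dexamethasone and control animals do not overlap, and control 4 stands above the other controls for JUN, ATF3 and BTG2, among others.

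The spread between animals set most of these genes apart in size from the typical gene on the array. The median SD within groups was 0.89 for the 9 genes and 0.347 for all 13679 genes. Of the 9 genes, 6 (FOS, ATF3, BTG2, EGR1, FOSB and JUNB) were at or above the 90th percentile, and the first 5 of these at or above the 95th. FOS, ATF3, BTG2 and EGR1 had an SD of at least 1, which 3.17% of all genes had. Wide spread was not particular to these genes. The median SD was 0.81 for fibroblast markers, 0.74 for beta-adrenergic and cAMP targets and 0.72 for leukocyte markers. In each list 7 genes were at or above the 90th percentile, of 12, 12 and 13 in the fit. Those of the beta-adrenergic and cAMP list include NR4A1, NR4A2 and NR4A3, which are also on the list of other immediate early genes described below. For upstream kinases and factors the median was 0.33, and for heat shock genes 0.35. The SD also differed with signal, so each gene was also set beside genes of similar mean signal (the same decile). There the SD of FOS was 4.99 times the median, that of ATF3 4.86 times and that of BTG2 4.54 times, while IER2 was at 1.19 times and EGR2 at 0.797 times.

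**Figure D2:**
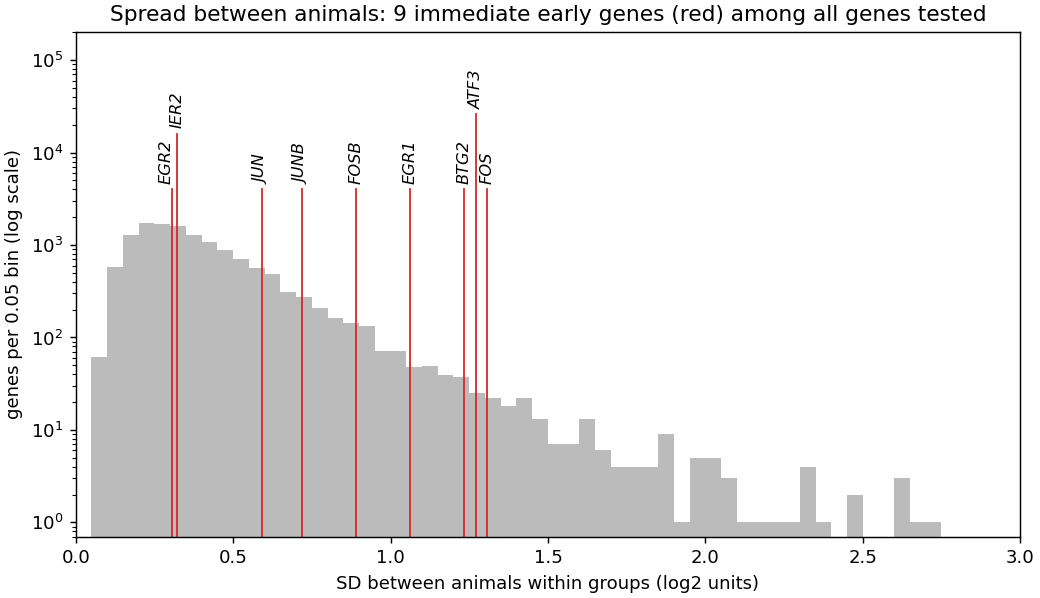
SD between animals within groups (x axis, log2 units) for all 13679 genes tested, as the number of genes per bin (y axis, log scale), with the 9 immediate early genes as red lines. EGR2 and IER2 sit in the bulk of genes at 0.31 and 0.32, and FOS, ATF3 and BTG2 sit in the upper tail at 1.31, 1.27 and 1.23.

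The first comparison asked whether dexamethasone alone changed these genes. None of the 9 passed limma at an adjusted p under 0.05, against 0.614% of all genes tested. All 9 had a log2 change above 0, where 54.6% of all genes did, and their median change was 0.79 against 0.034 for all genes. The 9 genes were read in the same animals and many varied together (below). Their directions are therefore not 9 separate observations, here or in the other comparisons. JUNB averaged 1.75 ± 0.24 after dexamethasone and 0.55 ± 0.65 in controls (SD, n = 4). This was 2.29-fold higher, a log2 change of 1.20 ± 0.45 (SE, 95% interval 0.21 to 2.18, limma adjusted p = 0.300, unadjusted 0.0214). JUNB was the only one of the 9 under an unadjusted p of 0.05, which 12.3% of all genes were.

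JUNB and IER2 were the 2 of 9 genes whose dexamethasone animals all lay above the controls, as did 2.51% of all genes. For each the exact two-sided permutation p over the 8 animals was 0.0286, the smallest that 4 against 4 animals allow. The IER2 change was 0.40 ± 0.23 (SE), with a limma adjusted p of 0.513. The changes with the widest intervals belonged to BTG2 (1.05 ± 0.76), FOS (0.88 ± 0.81), ATF3 (0.83 ± 0.78), FOSB (0.79 ± 0.56) and EGR1 (0.65 ± 0.66), none larger than the spread between animals. The second FOSB probe gave 0.38 ± 0.28. JUN (0.29 ± 0.38) and EGR2 (0.0017 ± 0.22) lay nearer to 0.

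These directions depended on which animals were set against each other. Among arrays of scan day 2, dexamethasone animals 1 to 3 differed from control animal 4 by -1.84 for BTG2, -1.77 for ATF3, -1.09 for JUN, -0.46 for FOSB and -0.30 for FOS. On the other days, dexamethasone animal 4 differed from controls 1 to 3 by 3.31, 2.87, 1.49, 1.22 and 1.85 for the same genes. JUNB was higher in both settings, by 1.80 and 0.85, as were IER2 (0.18 and 0.55) and EGR1 (0.11 and 0.86). Each of these splits has a single animal on 1 side. The day 2 differences are also those of a limma fit with scan day as a block, which takes the lone control to vary like the other animals. There none of the 9 genes passed, with SEs of 0.70 for BTG2, 0.78 for ATF3 and 0.36 for JUN (adjusted p = 0.480, 0.576 and 0.414). The part of scan day cannot be told apart from that of control animal 4. Without control animal 4 the median change of the 9 genes was 1.02 and that of JUNB was 1.02.

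Markers of other cell types also differed in this comparison. For fibroblast markers, 11 of 12 were lower after dexamethasone, with a median change of -1.07, 6 under an unadjusted p of 0.05 (12.3% of all genes were) and none called by limma. Their mean level, relative to each marker's mean over 12 arrays, ran from 0.18 to 0.76 in controls and from -1.43 to 0.62 after dexamethasone. For leukocyte markers, 9 of 13 were lower and 1 was called, against 0.614% of all genes (none with scan day as a fixed block). Their mean levels were 0.30 to 0.54 in controls and -0.94 to 0.49 after dexamethasone. Muscle fibre markers split evenly, 8 above and 8 below 0, with mean levels of -0.15 to 0.081 in controls and -0.70 to 0.29 after dexamethasone. The part of cell composition in the immediate early gene values was not tested.

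The second comparison set the combination against the same 4 controls. None of the 9 genes passed limma at an adjusted p under 0.05, against 0.0439% of all genes, and no gene of the 9 had groups that did not overlap, against 8.22%. Of the 9 changes, 8 were above 0 (53.8% of all genes were), and the median was 0.32 against 0.032 for all genes. IER2 had the smallest p, with a 1.45-fold higher mean (log2 change 0.53 ± 0.23 SE, 95% interval 0.039 to 1.02, limma adjusted p = 0.381, unadjusted 0.0366). It was the only 1 of the 9 under an unadjusted p of 0.05, which 12.1% of all genes were. JUNB changed by 0.78 ± 0.45 (limma adjusted p = 0.505), FOS by 0.44 ± 0.81, EGR1 by 0.42 ± 0.66 and BTG2 by -0.13 ± 0.76. Against control animal 4, scanned on day 2 too but on another slide, combination animals 1 to 3 differed by -2.46 for BTG2, -2.26 for ATF3 and -0.81 for FOS, and by 1.46 for JUNB and 0.49 for IER2. On the other days, combination animal 4 differed from controls 1 to 3 by 0.48 for BTG2, 2.31 for ATF3, 1.65 for FOS, 0.19 for JUNB and 0.16 for IER2. With 1 animal left out at a time, the median of the 9 genes ran from -0.030 (without combination animal 3) to 0.60 (without control animal 4).

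The third comparison asked what the combination added to dexamethasone alone, where dose and duration of dexamethasone differed too and no slide held both groups. None of the 9 genes passed limma at an adjusted p under 0.05, against 0.0146% of all genes. No gene of the 9 was under an unadjusted p of 0.05, against 11% of all genes, and none had groups that did not overlap, against 5.29%. Of the 9 changes, 2 were above 0 (52.4% of all genes were) and 7 below, with a median of -0.42 against 0.018 for all genes. With 1 animal left out at a time, this median ran from -0.84 (without combination animal 3) to 0.0029 (without combination animal 1). The largest belonged to BTG2, which was 2.25-fold lower in the combination group (log2 change -1.17 ± 0.76 SE, limma adjusted p = 0.618). The dexamethasone animals enter both this comparison and the first, so the values above 0 in 1 and below 0 in the other are not separate observations.

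**Figure D3:**
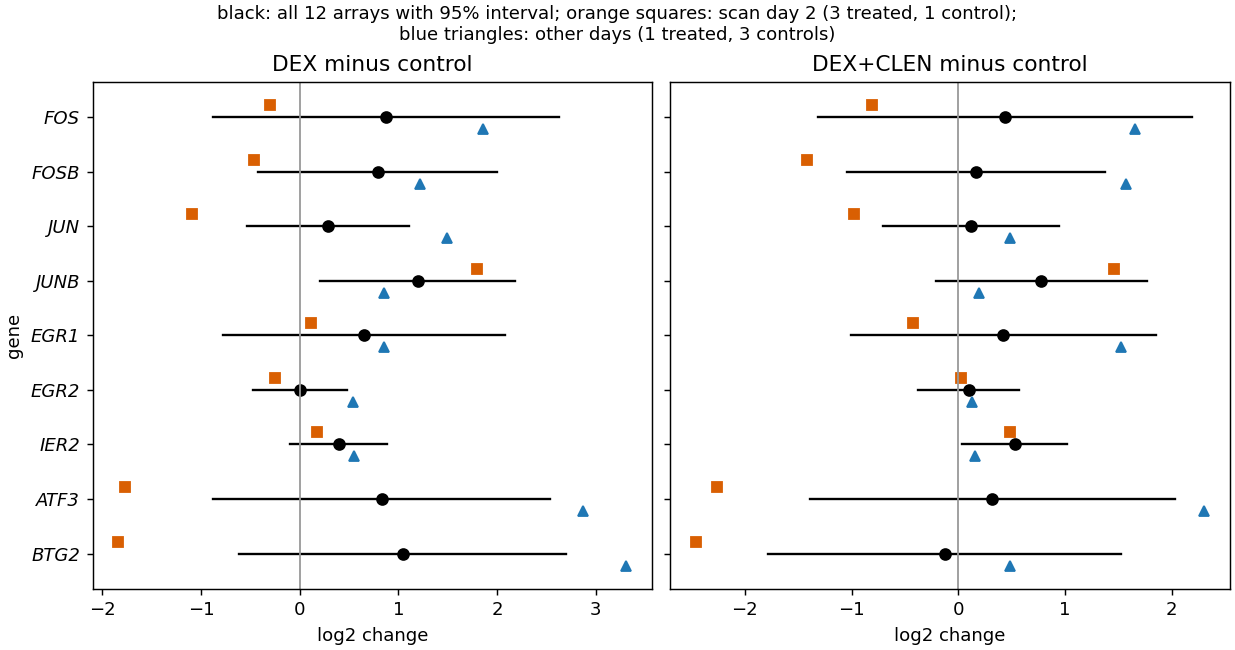
Log2 change (x axis) of each gene (y axis) after dexamethasone (left) and the combination (right) against control. Black points use all 12 arrays, with 95% intervals, orange squares the arrays of scan day 2 (3 treated animals and 1 control) and blue triangles the other days (1 treated animal and 3 controls). For ATF3 after dexamethasone the square is at -1.77 and the triangle at 2.87, while for JUNB both lie above 0, at 1.80 and 0.85.

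Whether the same animals were high for different genes was examined by subtracting each group's mean and correlating the genes over the 12 animals. Of the 36 pairs, 34 had r above 0, and the median r was 0.46 against 0.005 for all pairs of genes on the array. An r of 0.7 was reached by 5 pairs (13.9%), against 2.32% of all gene pairs, and by 4 without control animal 4. JUN and BTG2 gave the highest r, 0.96 (permutation p = 0.0013, Benjamini-Hochberg adjusted over the 36 pairs 0.0469), with rho 0.79 (permutation p = 0.0119, adjusted 0.107). This was the only pair under an adjusted p of 0.05 by r, and none was by rho, where 9 pairs were under an unadjusted p of 0.05 by r. With 1 animal left out at a time, 0 to 7 pairs passed, and with scan day as a block none did. The permutations moved animals within groups, in 13824 arrangements.

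The r of JUN and BTG2 was 0.84 without control animal 4 and dexamethasone animal 4, and 0.94 among the 7 arrays of scan day 2. FOSB and EGR1 followed with r = 0.82 (permutation p = 0.0252, adjusted 0.151; rho 0.80), which was 0.97 on scan day 2. FOS and EGR1 had r = 0.80 (permutation p = 0.0445, adjusted 0.185; rho 0.69), and 0.56 without combination animals 1 and 3. ATF3 correlated with JUN (r = 0.83, permutation p = 0.0101, adjusted 0.0905; rho 0.85) and BTG2 (r = 0.81, permutation p = 0.013, adjusted 0.0938; rho 0.76). Without control animal 4 and dexamethasone animal 4 these fell to 0.51 and 0.44. The 2 pairs below 0 both held ATF3, with JUNB (r = -0.20) and with IER2 (r = -0.15). Genes outside the set reached similar r. BRD2 had 0.962 with JUN, and SRSF4 had 0.94 with JUN and 0.92 with BTG2. When genes were ranked by r, JUN had rank 1 for BTG2 and EGR1 had rank 18 for FOSB. ATF3 had rank 79 for JUN, and FOSB had rank 233 for FOS. Whether the correlations reflect regulation particular to immediate early genes was not tested.

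**Figure D4:**
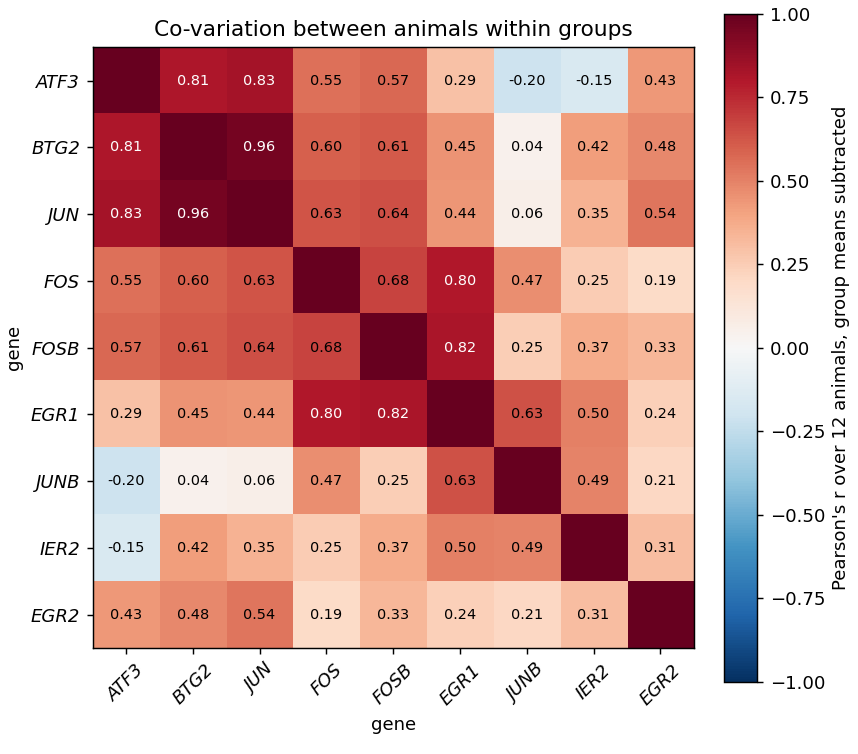
Pearson's r between the 9 genes over 12 animals with the group means subtracted (color scale from -1 to 1, both axes list the genes). ATF3, BTG2 and JUN had r of 0.81 to 0.96 with each other, and FOS, FOSB and EGR1 0.68 to 0.82. Pairs across these 2 sets reached 0.64 (FOSB and JUN), so the sets are not sharply apart.

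**Figure D5:**
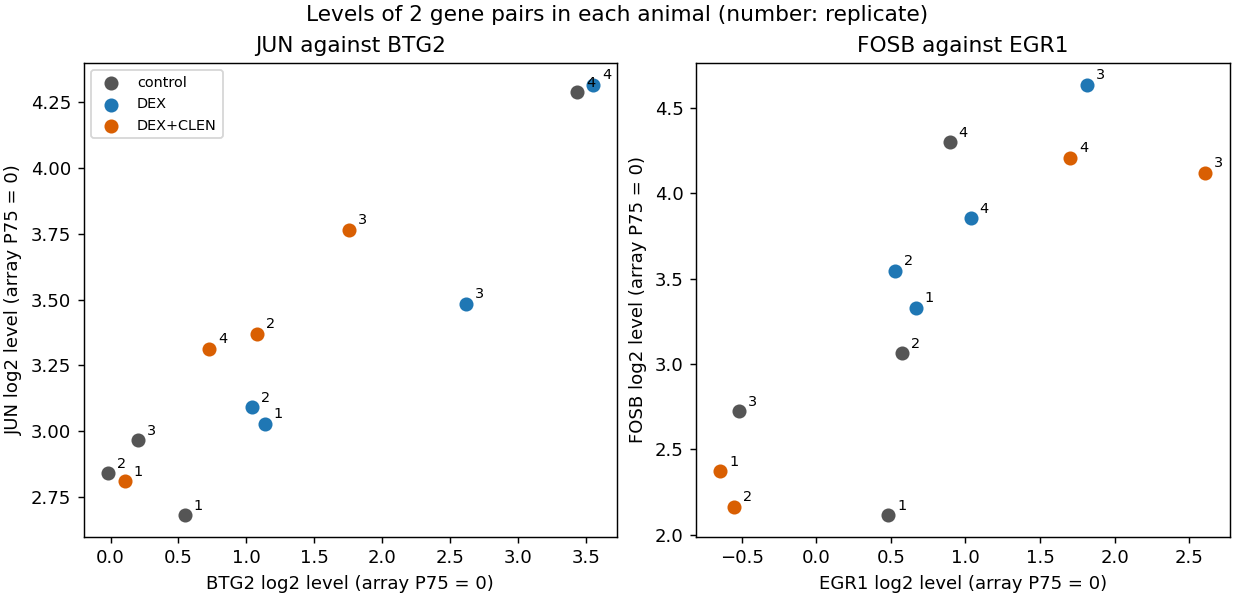
Levels of JUN against BTG2 (left) and FOSB against EGR1 (right) in each animal, log2 relative to the array's 75th percentile on both axes. Colors are groups and numbers are animals. Control 4 and dexamethasone 4 lie together at the top for JUN and BTG2. Combination animals 1 and 2 are the lowest for EGR1 and among the lowest for FOSB, where control 1 is the lowest.

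Each gene was then expressed in units of its own SD and averaged per animal. Combination animal 3 (1.102) and dexamethasone animal 4 (1.02) were highest, followed by dexamethasone animal 3 (0.81) and control animal 4 (0.49). Control animal 3 (-0.96), combination animal 1 (-0.81), control animal 1 (-0.77) and control animal 2 (-0.45) were lowest. The combination group thus held animals at both ends of the order. Controls 1 to 3, which shared slide 1 and scan day 1, all lay at the low end. The lowest dexamethasone animal was animal 1 (-0.35). Combination animal 3 was the highest of 12 for FOS, JUNB, EGR1 and IER2, and dexamethasone animal 4 for JUN, EGR2 and BTG2. Combination animal 1 was the lowest for FOS, EGR1 and ATF3.

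The 10 other genes whose levels most resembled this average, over 12 animals with group means subtracted, included 2 immediate early genes. These were ARC, a synaptic activity gene (r = 0.91), and DUSP1, a MAP kinase phosphatase (r = 0.88). The others were C19H17orf49 (0.97), KCNG2 (0.95), PML (0.94), SLC6A9 (0.92), TRPV4 (0.89), FFAR3 (0.89), TRPC4AP (0.88) and USP28 (0.88). Several of these had small spreads, 0.154 for C19H17orf49 and 0.161 for PML, and KCNG2 was well above background on 8 of 12 arrays.

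Among 46 other immediate early genes on a list, 42 were in the fit. Of these, 14 had an r of at least 0.5 with the average of the 9 genes, where 12.9% of all genes did, and the median r was 0.36 against 0.018. Besides ARC and DUSP1 the highest were PPP1R15A, a phosphatase subunit of the stress response (0.81), ZFP36, an mRNA decay factor (0.80), and IER5 (0.78). An SD within groups at or above the 90th percentile was found for 15 of them, with 2.64 for the nuclear receptor NR4A3 and 1.21 for NR4A2. No gene of this list was called by limma in any of the 3 comparisons, although 8 were higher and 6 lower after dexamethasone at an unadjusted p under 0.05. Over all genes, 12.3% were under that p in either direction. After dexamethasone, 28 were above and 14 below 0, and the smallest p belonged to GADD45G (-1.75, limma adjusted p = 0.0774), KLF6 (-0.96, 0.0788) and the kinase PIM1 (1.46, 0.120). In the combination group against control, 20 were above and 22 below 0, led by KLF10 (-0.99), HBEGF (1.34) and MCL1 (0.41). Against dexamethasone alone, PIM1 differed by -1.85 (limma adjusted p = 0.147), GADD45G differed by 1.72 and TRIB1 by -0.91.

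Kinases and transcription factors upstream of the immediate early genes were represented by 29 of 32 listed genes, and limma called none in any comparison. At an unadjusted p under 0.05, 2 were higher and 1 lower after dexamethasone, where 12.3% of all genes were under that p. SRF, the factor that binds the serum response element of FOS and EGR1, differed by 0.52 ± 0.19 after dexamethasone (SE, limma adjusted p = 0.295), without overlap between the groups, as did 2.51% of all genes in that direction. RPS6KA3, a kinase of the ERK pathway, differed by -0.75 (adjusted p = 0.228) and CAMK2A by 0.42 (0.389). In the combination group CREM, a cAMP-responsive factor, differed from control by -1.24 and from dexamethasone alone by -1.22 (limma adjusted p = 0.165 and 0.163), again without overlap. In either direction, 8.22% and 5.29% of all genes had no overlap in these 2 comparisons. RPS6KA3 (-0.82) and MEF2A (-0.44) followed against control, both also without overlap. MEF2A (-0.43), without overlap, and MRTFB (0.33), with overlap, followed against dexamethasone. Of the 29 genes, 1 was higher and 3 lower without overlap against control, and 2 were lower without overlap against dexamethasone.

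Of 23 glucocorticoid receptor targets in the fit, 7 fell after dexamethasone by limma at an adjusted p under 0.05. Over all genes, 0.614% were called in either direction. The 7 were RASD1, CRISPLD2, NFKBIA, KLF9, PIK3R1, FKBP5 and PER1, from -3.08 for FKBP5 to -1.29 for KLF9. The list was chosen with earlier results of these data known, so this count is not independent evidence. In the combination group limma called none of the 23 against control, with 6 lower at an unadjusted p under 0.05 (12.1% of all genes were under it in either direction), led by CRISPLD2 (-1.53), PDK4 (-1.41) and ZBTB16 (-0.71). Against dexamethasone alone RASD1 was called higher, by 1.89, where 0.0146% of all genes were called in either direction. NFKBIA (1.43) and FOXO3 (0.76) followed, not called. With scan day as a fixed block no gene of the array was called in any of the 3 comparisons. The call of RASD1 against dexamethasone alone was also lost with slide as a block, with quantile normalization and with no filter on dim probes, where that comparison called no gene. It called none either without control animal 1, 2 or 4, dexamethasone animal 2, 3 or 4, or combination animal 4. Of 12 beta-adrenergic and cAMP targets, limma called none (1 higher and 1 lower after dexamethasone at an unadjusted p under 0.05, against 12.3% of all genes). PDE4D, a cAMP phosphodiesterase, had the smallest p after dexamethasone (1.33, limma adjusted p = 0.0705), followed by CITED2 (-0.84) and ADRB1 (0.46). After CREM, CITED4 (0.53) and PPARGC1A (-1.68) had the smallest p in the combination against control, and PDE4D (-0.97) and CITED4 (0.82) against dexamethasone.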

How the data were processed

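The 12 arrays, 1 colour and 1 animal each, hold RNA from bovine muscle. Per the file headers, the deposited scanner files hold the processed signal intensity that the Feature Extraction software made for each spot by background subtraction. The deposited value table of the authors was used as an alternative; it ranks spots within an array as the scanner intensity does. Spots with outlier flags were left out, log2 intensity was taken relative to each array's 75th percentile, and spots of a probe were averaged. A probe was kept if 4 or more of the 12 arrays had it well above background (14703 probes), with the brightest probe for each of 13679 genes. One model with 3 group means was fitted to all of them with limma 3.58.1 in R 4.3.3, with Benjamini-Hochberg adjustment over all genes, and tested on simulated data.

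Probe names are those of the array, brought up to date through RefSeq gene numbers and accessions or the human match in the description. All 10 genes and their probes are described. From the lists, called genes are named, or the 3 of smallest p per comparison, and by likeness the 10 genes of highest r. The genes and lists were chosen with earlier results of these data known. Replicate numbers are only names. Arrays, not reads, limit precision: 4 animals per group.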

Additional observations from a re-analysis of the deposited data

Results flagged for a closer look

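BTG2 in control animal 4 had a log2 level of 3.44, while the other 3 controls lay between -0.02 and 0.55. The gap exceeded Dixon's critical value for 4 samples. Of 30 groups of 4 animals examined this way (10 probes in 3 groups), 1 was marked, where chance marks about 1 in 20. The same animal also had the highest control level of FOS, FOSB, JUN, EGR1, IER2 and ATF3, and the lowest JUNB level of all 12 animals. It was the only control scanned on day 2.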

How the results depend on the processing

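None of the 9 genes passed the threshold in any of the 3 comparisons under any of 24 alternatives. For dexamethasone against control, JUNB, EGR1 and IER2 kept their direction in all 24, and JUNB ranged from 1.02 to 1.80 (limma adjusted p from 0.150 to 0.606).

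When scan day entered as a fixed block, control animal 4 was the only control compared. The median of the 9 genes was then -0.30 for dexamethasone and -0.81 for the combination against control. For dexamethasone, FOS was at -0.30, FOSB at -0.46, JUN at -1.09, EGR2 at -0.25, ATF3 at -1.77 and BTG2 at -1.84. For the combination, FOS was at -0.81, FOSB at -1.42, JUN at -0.97, EGR1 at -0.42 and ATF3 at -2.26. JUN was at 0.11 for the combination against dexamethasone. Normexp background correction put EGR2 at -0.024 after dexamethasone, and array weights put BTG2 at 0.25 for the combination against control.

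Leaving out 1 animal at a time, the change after dexamethasone ranged from -0.17 to 0.19 for EGR2, 0.0066 to 0.65 for JUN, 0.39 to 1.55 for ATF3, 0.56 to 1.84 for BTG2, 0.36 to 0.83 for EGR1, 0.53 to 1.19 for FOS, 0.48 to 1.21 for FOSB and 0.30 to 0.46 for IER2. The highest JUN, ATF3 and BTG2 values came without control animal 4 and the lowest without dexamethasone animal 4. For the combination against control, FOS ranged from -0.29 to 1.25, FOSB from -0.17 to 0.58, JUN from -0.051 to 0.49, EGR1 from -0.19 to 0.90, ATF3 from -0.10 to 1.04 and BTG2 from -0.48 to 0.67. Against dexamethasone, FOS ranged from -1.17 to 0.38, JUN from -0.32 to 0.11, EGR1 from -0.84 to 0.24, EGR2 from -0.095 to 0.27 and IER2 from -0.062 to 0.28.

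The count of pairs under an adjusted p of 0.05 was 1, and 0 with either form of the scan day block. Leaving out 1 animal gave 0 to 7 such pairs, with 7 without control animal 2, 4 without combination animal 3, 1 without control animal 1 and 0 without any other. The count of all genes called for dexamethasone was 84. It was 25 with no filter on dim probes, 13 with scan day 2 against the other days as a block, 0 with scan day fixed, 287 with array weights, and 24 to 261 with 1 animal left out (24 without control animal 1, 261 without dexamethasone animal 1).

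For the combination against control the count was 6. It was 3 with quantile normalization or with only the 2 groups, 2 with the probe of largest variance, 128 with array weights, and 0 with no filter, with probes above background on all arrays, or with a scan day or slide block. Leaving out 1 animal gave 0 to 11. For the combination against dexamethasone it was 2. It was 1 with normexp or with probes above background on all arrays, 0 with quantile normalization, no filter, only the 2 groups, or a scan day or slide block, and 0 to 74 with 1 animal left out. The cause of these shifts was not tested. No paired analysis was possible because the labels give no pairing and the replicate numbers only follow the order of deposit.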

Other observations

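Heat shock genes, chaperones of the stress response, were all 19 above 0 in both treated groups against control. The median log2 change was 0.40 after dexamethasone and 0.78 in the combination group, against 0.034 and 0.032 for all genes. Limma called 1 of the 19, DNAJA1, higher in the combination group (1.60 ± 0.24 SE, 4 against 4 animals, adjusted p = 0.0482). Over all genes, 0.0439% were called. STIP1 (1.13, adjusted p = 0.101) and HSPA1A (1.88, adjusted p = 0.123) had the next smallest p. At an unadjusted p under 0.05, 15 of the 19 were higher, where 12.1% of all genes were under it in either direction. For 8 of the 19 the combination animals all lay above the controls, where 8.22% of all genes had no overlap in either direction. With scan day or slide as a block no gene of the array was called in this comparison. None was called either with no filter on dim probes, with probes well above background on all arrays, or without control animal 1, 2 or 3. After dexamethasone alone limma called none of the 19, 6 were higher at an unadjusted p under 0.05 (12.3% of all genes were under it in either direction), and DNAJA1 (0.74), HSPA1A (1.03) and STIP1 (0.55) led by p. Against dexamethasone, the combination differed by 0.86 for DNAJA1, 0.58 for STIP1 and 0.55 for HSPA8, with none called and 8 higher at an unadjusted p under 0.05 (11% of all genes were under it in either direction).

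Markers of the remaining cell types were mixed after dexamethasone. Of endothelial markers 7 of 10 were above 0, of smooth muscle and pericyte markers 6 of 9, of adipocyte markers 3 of 5, of blood cell markers 1 of 2 and of satellite cell markers 4 of 6. None of these was called by limma. At an unadjusted p under 0.05, 1 endothelial marker was higher and 2 lower, 1 smooth muscle and pericyte marker was lower, and 2 satellite cell markers were higher. Over all genes, 12.3% were under that p in either direction.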
